A study of Mus musculus with 12 samples.

Results

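Whole-kidney RNA was read for 9 genes of the collecting duct principal cell: the water channels Aqp2, Aqp3 and Aqp4, the vasopressin receptor Avpr2, the epithelial sodium channel (ENaC) subunits Scnn1a, Scnn1b and Scnn1g, the corticosteroid-inactivating enzyme Hsd11b2 and the sodium pump partner Fxyd4. They were chosen by name, as rows of the deposited table whose NCBI Gene number belongs to 1 of these genes. All 9 of 9 were found among its 27179 genes, and all 9 were among the 14972 genes tested, which had a level of 1 TPM or more in 3 or more of the 12 libraries. TPM (transcripts per 1000000) is a gene's reads divided by its length and scaled so that each library sums to 1000000, so levels of different genes in 1 library can be set side by side.

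The series held 12 whole-kidney RNA sequencing libraries from mice aged 8 to 12 weeks on a background labelled Mixed, with 3 mice in each of 4 groups. Wild-type mice received saline or cisplatin, a platinum drug that damages kidney tubules, as did mice labelled {Gamma}GT1-Cre;Fan1-/- (FAN1KO), bred to lose the DNA repair nuclease FAN1 where the Cre acts. The cisplatin groups received 2 mg/kg by intraperitoneal injection once a week for 5 weeks. The study describes this Cre as driven by Ggt1, which removes Fan1 in the proximal tubule. The principal cells described here belong to the collecting duct, which the Cre is not directed to. Whether the wild-type mice carried the Cre is not given in the sources used here.

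Principal cells line the collecting duct, where the last of the water and sodium in urine is recovered. Vasopressin binds Avpr2 on their blood side and, through cyclic AMP, sends Aqp2 to the urine side and raises its transcription, and water leaves the cell through Aqp3 and Aqp4. Aldosterone acts on the mineralocorticoid receptor, which Hsd11b2 shields from cortisol and corticosterone, and raises sodium entry through ENaC, while Fxyd4 (corticosteroid hormone-induced factor) adjusts the sodium pump that carries the sodium out.

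The recovered reads assigned to genes were 37196407 to 82935965 per library. Fan1 itself, read first as the targeted gene, was at 1.98 to 3.80 TPM in wild-type and 1.17 to 2.28 TPM in FAN1KO kidneys under saline (exact permutation p = 0.2) and at 2.33 to 3.57 and 1.55 to 3.51 TPM under cisplatin (exact permutation p = 0.6, where 0.1 is the smallest that 3 against 3 mice can give). The genotypes overlapped, so whole-kidney Fan1 RNA did not check the labels. RNA of 4 Y-linked genes was high in 1 library of each group (replicate 3 of the wild-type mice and 1 of the FAN1KO mice under saline, and under cisplatin 1 and 3, respectively) and near 0 in the other 8. In 3 of these libraries all 9 genes had their lowest value of the group, whereas in FAN1KO cisplatin 3, the remaining one, the lowest value was found for 3 of the 9 and the highest for 4. Results are therefore also given without these 4 libraries. The study used male and female mice, and the labels do not give the sex of each. Mitochondrially encoded genes held 9.52 to 15.9% of TPM in FAN1KO cisplatin and 17.4 to 22.1% in the other libraries, which moves the TPM of all other genes. In whole kidneys, a change in the number of principal cells and a change in RNA per cell cannot be told apart.

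Upstream sequence was read from RefSeq's promoter windows (GRCm38.p6, the build that the labels call mm10) for Aqp2, Aqp3 and Scnn1b, which were higher in FAN1KO kidneys under cisplatin and whose windows lie outside annotated exons. Each line runs 5′ to 3′ on the gene's own strand and ends at the start of transcription, except that of Aqp2, which ends 1 base before it. Short motifs, 4 in all, that bear on these genes' known regulation were searched on both strands: TGACG, the core of the cyclic AMP response element, AGAACA, the half-site of the glucocorticoid and mineralocorticoid receptors, GATAA, the core bound by GATA factors, and TATAAA, the TATA box. Capitals mark the matches.
Aqp2 (chr15:99578806-99579054, plus strand): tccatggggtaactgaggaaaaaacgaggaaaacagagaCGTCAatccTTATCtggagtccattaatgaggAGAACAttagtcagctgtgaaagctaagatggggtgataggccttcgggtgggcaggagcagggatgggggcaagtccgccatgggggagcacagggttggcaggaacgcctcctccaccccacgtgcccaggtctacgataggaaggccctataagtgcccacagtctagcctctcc
Aqp3 (chr4:41098184-41098433, minus strand): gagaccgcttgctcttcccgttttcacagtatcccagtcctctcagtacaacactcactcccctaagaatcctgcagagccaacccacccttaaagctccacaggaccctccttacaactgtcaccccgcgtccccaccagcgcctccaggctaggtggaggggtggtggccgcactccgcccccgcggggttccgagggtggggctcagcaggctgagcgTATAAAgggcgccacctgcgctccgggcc
Scnn1b (chr7:121864788-121865037, plus strand): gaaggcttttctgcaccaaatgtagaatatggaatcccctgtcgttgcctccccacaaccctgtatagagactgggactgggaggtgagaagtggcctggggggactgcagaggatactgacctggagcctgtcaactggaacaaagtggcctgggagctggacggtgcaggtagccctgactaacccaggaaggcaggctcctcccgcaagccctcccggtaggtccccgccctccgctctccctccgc
The Aqp2 window held TGACG on the opposite strand (bases 211 to 207 before the start), GATAA on the opposite strand (202 to 198) and AGAACA on its own strand (179 to 174). The Aqp3 window held TATAAA at bases 29 to 24 before the start, and the Scnn1b window held none of the 4. Among all 32851 windows of 250 bases, TGACG was found in 17.8%, AGAACA in 16.1%, GATAA in 22.6% and TATAAA in 12.4%. The matches describe these letters only.

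In every group Aqp2 had the highest mean level of the 9 and Aqp4 the lowest. In wild-type saline kidneys the order of mean TPM was Aqp2 (451 ± 89.5, SD, n = 3), Hsd11b2 (214 ± 55.8), Aqp3 (119 ± 7.96), Fxyd4 (75.7 ± 11.9), Scnn1a (71.6 ± 23.9), Scnn1b (48.1 ± 13.4), Scnn1g (31.2 ± 9.63), Avpr2 (23.0 ± 6.44) and Aqp4 (2.72 ± 1.01). Neighbours in this order from Fxyd4 to Avpr2 overlapped in their 3 values, and the others did not. In FAN1KO cisplatin kidneys Fxyd4 moved above Aqp3 and Scnn1b above Scnn1a in the order of means, although both pairs overlapped.

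**Figure D1:**
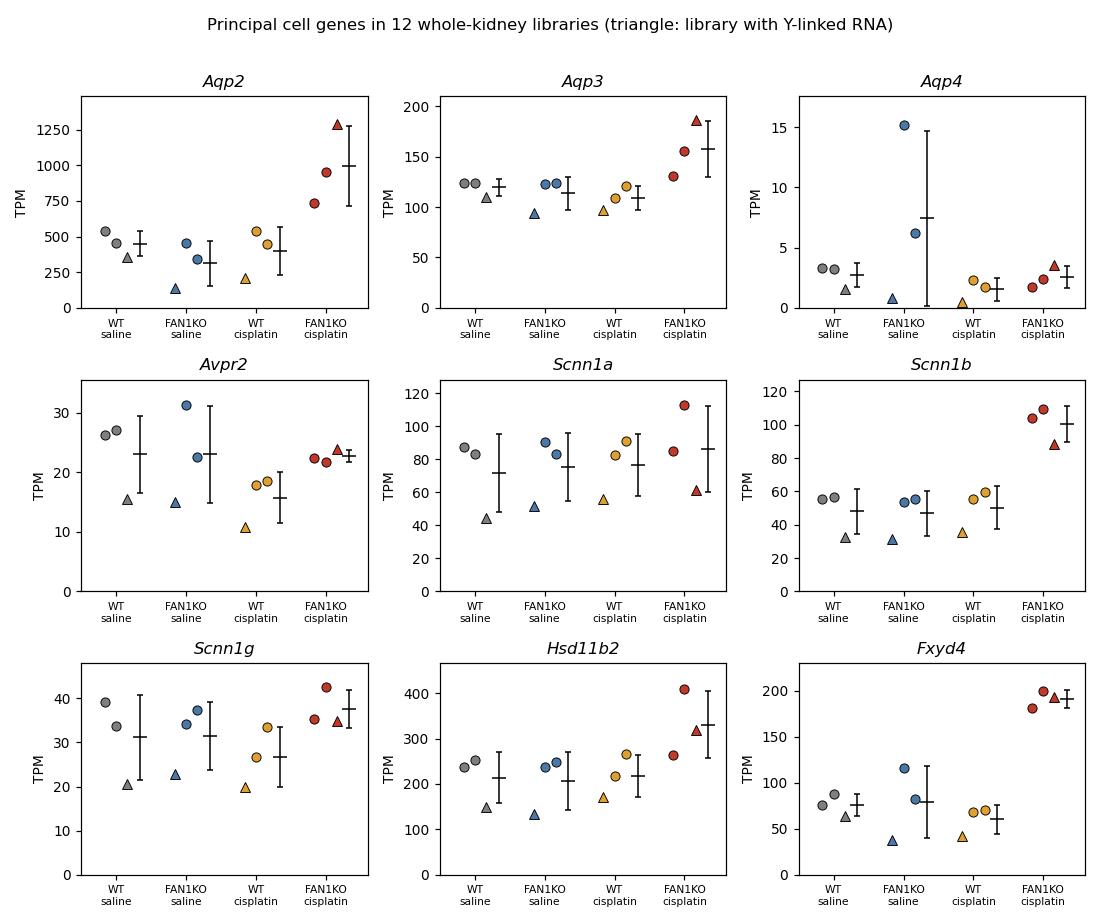
TPM of the 9 principal cell genes (each panel starts at 0) in the 3 libraries of each group (WT, wild-type), with the mean and SD beside the points; triangles are the 4 libraries with Y-linked RNA. Aqp2, Aqp3, Scnn1b and Fxyd4 lie higher in all 3 FAN1KO cisplatin kidneys than in any other kidney, and outside that group the triangles are the lowest of their group in every panel.

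Under cisplatin, where the comparison is of levels between genotypes and not of responses to the drug, 4 of the 9 genes were higher in FAN1KO than in wild-type kidneys and none was lower: Fxyd4, Aqp2, Scnn1b and Aqp3, by 3.21-, 2.62-, 2.02- and 1.43-fold. For comparison, 19.6% of all genes tested were called higher and 4.37% lower (limma on log2(TPM + 1), Benjamini–Hochberg adjusted p under 0.05). The median log2 fold change of the 9 was 0.54, beside 0.24 for all genes tested. When libraries were scaled by the median ratio of their genes, the all-gene median became -0.02 and the median of the 9 became 0.29. Only Fxyd4 and Scnn1b were then called, 2 of 9 beside 8.68% of all genes tested. Without the 4 libraries with Y-linked RNA, 3 of 9 were called higher (Fxyd4, Scnn1b and Aqp2), beside 28.9% of all genes tested. With Y-linked RNA as a covariate 7 of 9 were called higher, all but Scnn1a and Aqp4, beside 40.3%. The 3 FAN1KO values lay above the 3 wild-type values, without overlap, for 6 of 9 genes (35.7% of all genes tested lay above and 8.6% below). Each of the 6 had an exact permutation p of 0.1, which 3 against 3 values without overlap always give, so it adds nothing to that count.

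Aqp2 (11827, chr15:99579056-99584545) encodes the vasopressin-regulated channel of the urine side. Its TPM was 738, 956 and 1292 in FAN1KO cisplatin kidneys and 208, 536 and 451 in wild-type cisplatin kidneys. Under saline it was 141, 453 and 342 in FAN1KO and 537, 456 and 359 in wild-type kidneys. The 3 FAN1KO cisplatin libraries were above all 9 others. The log2 fold change against wild-type was 1.39 ± 0.45 (SE; 95% interval 0.40 to 2.38; limma adjusted p = 0.0455). This call rested on the threshold: it was lost in 9 of the 12 fits that left out 1 library (adjusted p 0.0181 to 0.163, the highest without wild-type cisplatin 1), and it held only without FAN1KO saline 1, FAN1KO saline 2 or wild-type cisplatin 2. It was also lost in 6 of the 10 other settings: median-ratio scaling (1.08, adjusted p = 0.0757), mitochondrially encoded genes removed (0.0760), no filter on low genes (0.0650), the 6 cisplatin libraries alone (0.0563), voom on the recovered reads (0.0513) and no mean-variance trend (0.0510). Aqp2 was 6.20-fold higher between the pair of cisplatin libraries with Y-linked RNA (1292 against 208 TPM) and 1.71-fold higher between the means of the other libraries, where it was called (adjusted p = 0.0185). What else these libraries share was not tested.

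Aqp3 (11828, chr4:41092724-41098183), a water and glycerol channel of the blood side, moved less. Its TPM was 131, 155 and 186 in FAN1KO cisplatin kidneys and 97.2, 109 and 121 in wild-type cisplatin kidneys, and 94.3 to 124 in the 6 saline kidneys. The FAN1KO cisplatin values were the 3 highest of the 12. The log2 fold change was 0.51 ± 0.15 (limma adjusted p = 0.0325), but it was 0.21 under median-ratio scaling (adjusted p = 0.447). The call was also lost once mitochondrially encoded genes were removed (0.42, adjusted p = 0.105), in the 6 cisplatin libraries alone (0.0708), without the libraries with Y-linked RNA (0.0525) and without wild-type cisplatin 1 (0.113), wild-type cisplatin 2 (0.0659), FAN1KO cisplatin 2 (0.0847) or FAN1KO cisplatin 3 (0.0860).

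Aqp4 (11829), a blood-side channel that is richest in the inner part of the duct, was the least expressed and most variable of the 9. Its TPM was 1.71, 2.44 and 3.55 in FAN1KO cisplatin, 0.500, 2.36 and 1.77 in wild-type cisplatin, 0.869, 15.2 and 6.25 in FAN1KO saline and 3.33, 3.26 and 1.55 in wild-type saline kidneys. The groups overlapped, and the log2 fold change under cisplatin was 0.53 ± 0.64 (limma adjusted p = 0.576). The highest value, in FAN1KO saline 2, came from the library in which Slc14a2, the urea transporter of the inner medulla (singled out after its values were seen), was at 26.9 TPM, beside 0 to 6.51 TPM in the other 11. Under cisplatin Slc14a2 was at 0.371, 6.51 and 6.45 TPM in FAN1KO and 0, 1.58 and 0.112 TPM in wild-type kidneys, with overlap. How much inner medulla each piece of kidney held, and its part in the levels of the 9 genes, was not tested.

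Avpr2 (12000, chrX:73891765-73894428), the vasopressin V2 receptor, was at 22.4, 21.8 and 23.9 TPM in FAN1KO cisplatin and 10.8, 17.9 and 18.6 TPM in wild-type cisplatin kidneys. These groups did not overlap, and FAN1KO cisplatin lay within the range of the 6 saline kidneys, 15.0 to 31.3 TPM. The log2 fold change of 0.54 ± 0.29 (95% interval -0.10 to 1.17) was not called (limma adjusted p = 0.197). Avpr2 overlaps Arhgap4 on the genome, which was at 1.91 to 8.39 TPM, and how reads in the shared stretch were counted is not given in the sources used here. Aqp2, Aqp4 and Scnn1g also overlap other annotated genes.

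Among the sodium channel subunits, Scnn1b was called and Scnn1a and Scnn1g were not. The 3 proteins form 1 channel, with the alpha subunit (Scnn1a) needed for assembly and the beta and gamma subunits for full current. Scnn1g and Scnn1b lie next to each other on chromosome 7 (chr7:121734420-121768482 and chr7:121865038-121918728), with 96555 bases and no annotated gene between them, while Scnn1a is on chromosome 6 (chr6:125314271-125344943).

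Scnn1b (20277) was at 104, 109 and 88.6 TPM in FAN1KO cisplatin kidneys and 35.5, 55.5 and 59.8 TPM in wild-type cisplatin kidneys. The 6 saline kidneys held 31.2 to 56.4 TPM, so that FAN1KO cisplatin stood apart from all other groups. The log2 fold change was 1.02 ± 0.28 (limma adjusted p = 0.0255), 0.71 under median-ratio scaling (adjusted p = 0.0163) and 0.88 without the libraries with Y-linked RNA (adjusted p = 0.000669). The call was lost without wild-type cisplatin 1 (adjusted p = 0.0956), FAN1KO cisplatin 1 (0.0880) or FAN1KO cisplatin 2 (0.0833).

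Scnn1g (20278) was at 35.3, 42.5 and 34.8 TPM in FAN1KO cisplatin and 19.8, 26.6 and 33.4 TPM in wild-type cisplatin kidneys, while wild-type saline kidneys reached 39.2 TPM. The 2 cisplatin groups did not overlap, but the log2 fold change of 0.51 ± 0.26 was not called (limma adjusted p = 0.186). Scnn1a (20276) was at 84.7, 113 and 61.2 TPM against 55.6, 82.5 and 91.3 TPM, with overlap. Its log2 fold change was 0.16 ± 0.33 (95% interval -0.56 to 0.88; limma adjusted p = 0.747) and turned to -0.14 under median-ratio scaling.

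The ratio of Scnn1b to Scnn1a within a library does not depend on the scaling between libraries. It was 1.23, 0.966 and 1.45 in FAN1KO cisplatin kidneys and 0.588 to 0.737 in the other 9. The log2 difference against wild-type cisplatin was 0.87, and against FAN1KO saline 0.95. Both gave an exact permutation p of 0.1, the smallest that 3 against 3 mice allow (0.218 after Benjamini–Hochberg adjustment over 24 comparisons of 6 ratios). The ratio of Scnn1g to Scnn1a was 0.416, 0.376 and 0.569 in FAN1KO cisplatin kidneys, which overlapped both saline groups (0.378 to 0.464) and lay above wild-type cisplatin (0.322 to 0.366). Relative to Scnn1a, then, Scnn1b stood apart in the FAN1KO cisplatin libraries from those of every other group, and Scnn1g from those of wild-type cisplatin alone.

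**Figure D2:**
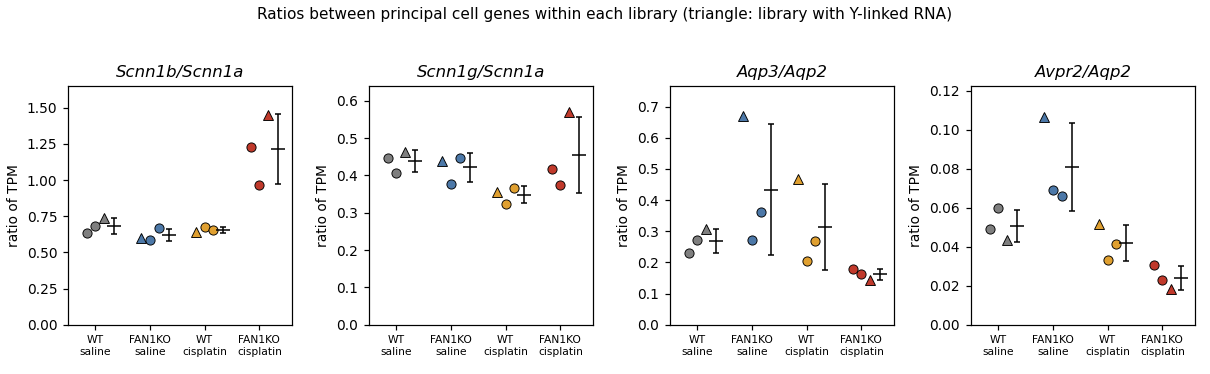
Ratios of TPM within each library for 4 pairs of genes (each axis starts at 0), with the mean and SD of the 3 libraries beside the points; triangles are libraries with Y-linked RNA. Scnn1b/Scnn1a is 0.966 to 1.45 in FAN1KO cisplatin and 0.588 to 0.737 elsewhere, and Aqp3/Aqp2 and Avpr2/Aqp2 are lowest in FAN1KO cisplatin.

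Hsd11b2 (15484, chr8:105518746-105523988) was at 263, 410.5 and 319 TPM in FAN1KO cisplatin and 172, 217 and 265 TPM in wild-type cisplatin kidneys. The groups overlapped by 1 library, and the log2 fold change of 0.60 ± 0.29 (95% interval -0.03 to 1.23) was not called (limma adjusted p = 0.150). Fxyd4 (108017, chr6:117933558-117937714) gave the largest fold change of the 9. It was at 181, 200.2 and 193 TPM in FAN1KO cisplatin kidneys and 42.1, 68.4 and 70.6 TPM in wild-type cisplatin kidneys. The other 9 libraries reached at most 116 TPM, in FAN1KO saline 2. The log2 fold change was 1.68 ± 0.34 (95% interval 0.93 to 2.43; limma adjusted p = 0.0069). It was called in each of the 12 fits without 1 library (1.45 to 1.81, adjusted p 0.0011 to 0.0281), under median-ratio scaling (1.38, adjusted p = 0.0062) and without the libraries with Y-linked RNA (1.44, adjusted p = 0.0013).

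The levels of the other water genes were also set against Aqp2. As an exact permutation p of 3 against 3 mice cannot be under 0.1, no such ratio could pass at 0.05. Aqp3 per Aqp2 was 0.178, 0.162 and 0.144 in FAN1KO cisplatin kidneys and 0.203 to 0.670 in the other 9, and Avpr2 per Aqp2 was 0.0304, 0.0228 and 0.0185 against 0.0334 to 0.107. Neither FAN1KO cisplatin range overlapped that of any other group. Each difference from wild-type cisplatin (log2 -0.88 and -0.83) had an exact permutation p of 0.1 and an adjusted p of 0.218. Aqp4 per Aqp2 overlapped between the cisplatin groups (0.00232 to 0.00275 against 0.00241 to 0.00441; exact permutation p = 0.3, adjusted p = 0.400). Under saline Avpr2 per Aqp2 was higher in FAN1KO (0.0662 to 0.107) than in wild-type kidneys (0.0435 to 0.0597), with a log2 difference of 0.65 and an exact permutation p of 0.1 (adjusted p = 0.218). Aqp2 per Hsd11b2 overlapped between the cisplatin groups (2.33 to 4.05 against 1.21 to 2.47).

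Under saline, the comparison that asks whether loss of FAN1 alone changes these genes, none of the 9 was called by limma, beside 0.341% of all genes tested called higher and 0.427% lower. Nor did any have an unadjusted p under 0.05, beside 440 of the 14972 genes tested higher and 815 lower. None separated the genotypes without overlap, beside 4.62% higher and 7.83% lower. The fold changes were imprecise. Aqp2 had a log2 fold change of -0.67 ± 0.45 (95% interval -1.65 to 0.32; limma adjusted p = 0.860), and a mean of 312 ± 158 TPM in FAN1KO against 451 ± 89.5 TPM in wild-type kidneys. Aqp4 was at 0.74 ± 0.64 (limma adjusted p = 0.973), and the other 7 lay between -0.08 and 0.09.

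Cisplatin against saline in FAN1KO kidneys gave the same 4 of 9 genes higher, beside 34.9% of all genes tested, and none lower, beside 4.9%. The treatments did not overlap for 5 of 9, all with cisplatin higher (47.4% of all genes tested were higher and 7.43% lower). Both this comparison and the one between genotypes use the 3 FAN1KO cisplatin libraries. The log2 fold change was 1.79 ± 0.45 for Aqp2 (limma adjusted p = 0.0102), 1.41 ± 0.34 for Fxyd4 (0.0088), 1.13 ± 0.28 for Scnn1b (0.0097) and 0.46 ± 0.15 for Aqp3 (0.0313). The all-gene median was 0.37 here and became -0.03 under median-ratio scaling, where Aqp3 was at 0.00 (adjusted p = 0.997) and the other 3 were called at 1.32, 0.95 and 0.67, 3 of 9 beside 14.4% of all genes tested. These 3 were also called in all 12 fits without 1 library. With Y-linked RNA as a covariate Hsd11b2 was called too, 5 of 9 beside 52.9%. Aqp3 was not called in the 6 FAN1KO libraries alone (adjusted p = 0.0706), once mitochondrially encoded genes were removed (0.141), without the libraries with Y-linked RNA (0.123), or without FAN1KO saline 1 (0.122), FAN1KO cisplatin 2 (0.0753) or FAN1KO cisplatin 3 (0.0982).

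The other 5 genes did not pass in this comparison. Hsd11b2 did not overlap between the treatments (263 to 410.5 against 134 to 248 TPM), with a log2 fold change of 0.70 ± 0.29 (limma adjusted p = 0.0718). Scnn1g, Scnn1a and Avpr2 were at 0.27, 0.19 and 0.04, and all 3 were negative under median-ratio scaling. Aqp4 was at -0.79 ± 0.64 (limma adjusted p = 0.347). Without FAN1KO saline 1 it was -1.64 and called lower (adjusted p = 0.0236), and likewise without all 4 libraries with Y-linked RNA (-1.83, adjusted p = 0.0045), where 3 of 9 were called higher beside 44.4% and 1 of 9 lower beside 8.39% of all genes tested.

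In wild-type kidneys, cisplatin against saline called none of the 9 by limma, beside 0.0601% of all genes tested called higher and 0% lower. Nor did any have an unadjusted p under 0.05, beside 382 of the 14972 genes tested higher and 67 lower. None separated the groups without overlap, beside 5.2% higher and 1.08% lower. The log2 fold changes ran from -0.58 (Aqp4) to 0.12 (Scnn1a), with a median of -0.20 beside 0.08 for all genes tested. The largest departure for its error was that of Avpr2, from 23.0 ± 6.44 to 15.7 ± 4.33 TPM (log2 -0.52 ± 0.29, 95% interval -1.15 to 0.12). Its unadjusted p in limma was 0.102.

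**Figure D3:**
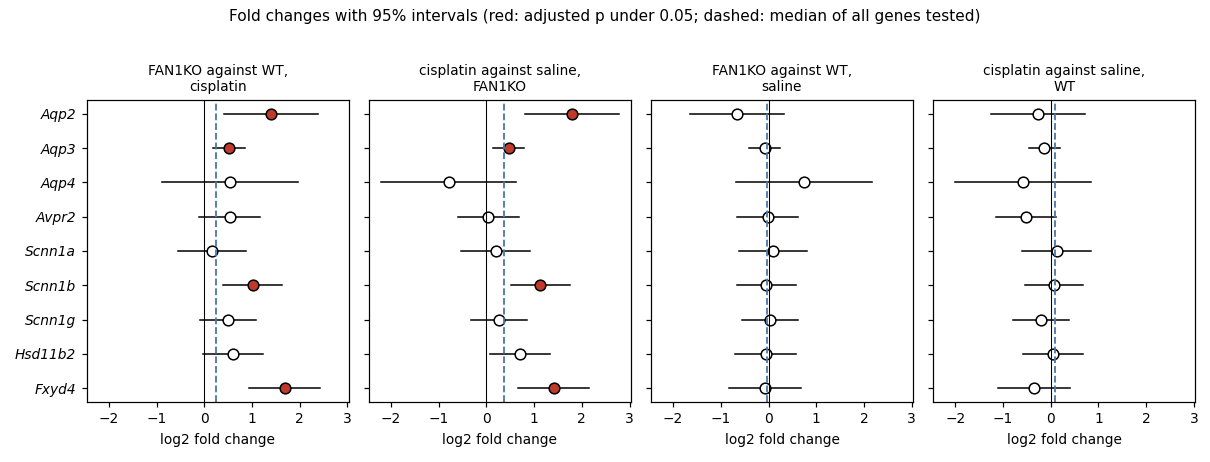
Log2 fold changes of TPM + 1 with 95% intervals from limma for the 9 genes in the 4 comparisons of groups; red points have an adjusted p under 0.05 and the dashed line is the median of all genes tested. Aqp2, Aqp3, Scnn1b and Fxyd4 are red in both comparisons that hold the FAN1KO cisplatin kidneys, and no gene is red in the others.

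Whether the response to cisplatin differed between genotypes was tested by the interaction term. None of the 9 passed over all genes tested (5.22% were called higher and 1.02% lower). An unadjusted p under 0.05 was found for 4 of 9, beside 3200 of the 14972 genes tested higher and 551 lower. The difference of log2 fold changes was 2.06 ± 0.63 for Aqp2 (limma adjusted p = 0.0755), 1.75 ± 0.48 for Fxyd4 (0.0560), 1.06 ± 0.39 for Scnn1b (0.127) and 0.60 ± 0.21 for Aqp3 (0.115). With Y-linked RNA as a covariate the same 4 passed (adjusted p 0.0017 to 0.0474), beside 27.3% of all genes tested called higher. Without the 4 libraries, Aqp2, Scnn1b and Fxyd4 passed (adjusted p 0.0349, 0.0066 and 0.0203), beside 13.4%. Fxyd4 alone passed by limma's voom on the recovered reads (0.0459) and without FAN1KO saline 2 (0.0314).

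The genes around these 9 were taken as 5 lists of the pathway, of which 43 of 44 genes were tested. Under cisplatin, 7 of the 43 were higher in FAN1KO than in wild-type kidneys and none was lower, a smaller share than the 19.6% of all genes tested called higher. The median log2 fold change was 0.30, beside 0.24 for all genes tested. The 7 stood in 2 of the lists.

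Of the 8 proteases and inhibitors that act on ENaC, 3 were higher: the membrane protease matriptase St14 (1.36 ± 0.44, limma adjusted p = 0.0455), and the Kunitz-type inhibitors Spint1 (1.17 ± 0.33, 0.0283) and Spint2 (0.96 ± 0.21, 0.0092). Both inhibitors restrain matriptase and prostasin, so the list holds genes of opposed action. The list's median was 0.37. Spint2 was at 1033, 995 and 931 TPM in FAN1KO cisplatin and 356, 574 and 630 TPM in wild-type cisplatin kidneys, without overlap.

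Of the 8 transcription factors of the principal cell, 4 were higher: Ehf (1.26 ± 0.39, limma adjusted p = 0.0392), Elf5 (1.13 ± 0.31, 0.0268), Elf3 (1.06 ± 0.35, 0.0483) and, the smallest of the 4, Hoxb7 (0.69 ± 0.19, 0.0273). The first 3 are Ets factors of epithelia, and Elf5 marks principal cells in the mouse. Elf5 was low throughout, at 2.87, 1.75 and 3.19 TPM in FAN1KO cisplatin and 0.171, 1.15 and 0.703 TPM in wild-type cisplatin kidneys. The median of this list was 0.65. Under median-ratio scaling 2 of the 8 were called, beside 1300 of the 14972 genes tested called higher and 1154 lower.

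None of the 12 genes of vasopressin and cyclic AMP signalling passed, at a median of 0.07, and none of the 8 of aldosterone signalling, at 0.32. The mineralocorticoid receptor Nr3c2 was at 0.37 ± 0.30 (limma adjusted p = 0.392) and its target Sgk1, the kinase that keeps ENaC at the surface, at 0.30 ± 0.62 (0.755). None of the 7 tested potassium channel and sodium pump genes passed (median 0.21). For cisplatin against saline in FAN1KO kidneys 10 of the 43 were higher, a smaller share than the 34.9% of all genes tested, and 2 were lower, beside 4.9%, with a median of 0.35 beside 0.37 for all genes tested. Those lower were the channel-activating protease Prss8 (-0.32, limma adjusted p = 0.0473) and the sodium pump partner Fxyd2 (-0.45, 0.0360), named after their values were seen. Under saline, and for cisplatin in wild-type kidneys, no gene of the 5 lists passed. The summed TPM of the aldosterone list did not overlap there (4243 to 7068 in FAN1KO, 2072 to 2929 in wild-type kidneys). Most of that sum was the tissue kallikrein Klk1, singled out after its values were seen, at 4092, 4965 and 6908 against 2711, 1993 and 1956 TPM (log2 1.24 ± 0.27, limma adjusted p = 0.0760).

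**Figure D4:**
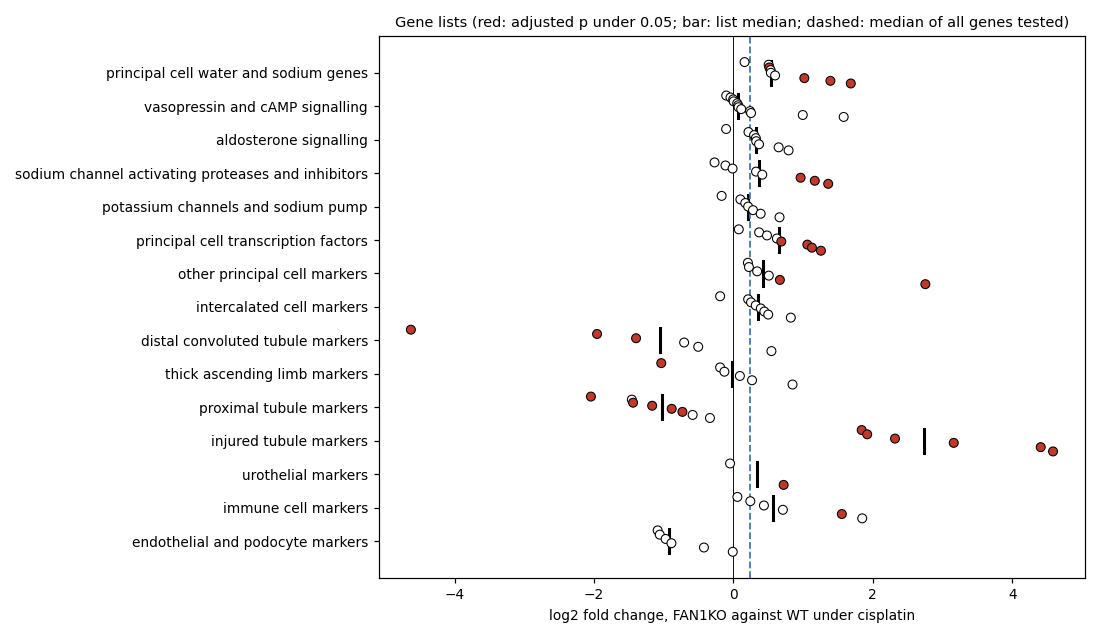
Log2 fold changes between FAN1KO and wild-type kidneys under cisplatin for the 9 principal cell genes, the 5 pathway lists and 9 marker lists, 1 point a gene; red points have a limma adjusted p under 0.05, black bars are list medians and the dashed line is the median of all genes tested. The 9 genes have a median of 0.54, proximal tubule markers lie below 0 and injured tubule markers above 1.

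The list taken as other principal cell markers held 6 genes outside the 9, and not all are particular to principal cells. All 6 were detected in every library. Of all genes tested, 19.6% were called higher between genotypes under cisplatin and 4.37% lower. Under cisplatin 2 of 6 were higher in FAN1KO than in wild-type kidneys, the keratin Krt18 (2.75 ± 0.25, limma adjusted p = 0.000153) and Tmem45b (0.67 ± 0.13, 0.0057), with a list median of 0.42. The other 4 were not called: Apela at 0.51 (adjusted p = 0.521), Rhcg at 0.34 (0.342), Cdh16 at 0.22 (0.0834) and Npnt at 0.21 (0.681). Krt18 is also made by injured tubule cells of other segments. The summed TPM of the 6 was 1009 to 1206 in FAN1KO cisplatin and 687 to 928 in wild-type cisplatin kidneys. Most of it was Cdh16, a cadherin of many tubule segments, at 576 to 631 against 504 to 516 TPM. Krt18 added 88.3 to 142 against 12.5 to 19.1 TPM. Apela, Npnt and Rhcg overlapped between the groups.

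Markers of other cells moved in the same libraries, where 19.6% of all genes tested were called higher and 4.37% lower. All 6 injured tubule markers were higher (summed TPM 2274 to 4075 against 314 to 636; Krt20, Lcn2 and Havcr1 at 4.58, 4.41 and 3.16), and 5 of 8 proximal tubule markers were lower (1526 to 2985 against 3758 to 5524; Slc22a6, Lrp2 and Slc34a1 at -2.04, -1.44 and -1.17). Of 8 intercalated cell markers, the neighbours of principal cells in the same duct, none was called (median 0.36; 506 to 694 against 312 to 582). Of 6 distal convoluted tubule markers 3 were lower (476 to 930.5 against 915 to 1662; Pvalb, Egf and Calb1 at -4.63, -1.96 and -1.40), while Slc12a3, the sodium chloride transporter that defines the segment, was at 0.55 and not called (adjusted p = 0.216; 464, 609 and 234 against 198, 299 and 359 TPM). Of 6 thick ascending limb markers 1 was lower, Cldn10 at -1.04, while the summed TPM of the 6 overlapped (1798 to 2171 against 1438 to 2865). A fall of the whole segment was thus not shown. Another of the 6, Cldn16, named after its values were seen, was not called. It lay higher without overlap, at 32.6, 34.3 and 30.5 against 9.91, 22.4 and 24.1 TPM. Of 6 immune markers 1 was higher, Cd68 at 1.56, with a limma adjusted p of 0.0499, just under the threshold. The summed TPM of the 6 immune markers was 151 to 383 against 38.8 to 168. Of 6 endothelial and podocyte markers none was called (45.5 to 231 against 88.6 to 286). Of the urothelial markers 2 of 6 were tested and 1 was higher, Upk1a at 0.72, with Upk1b, Upk2 and Upk3a at most 0.459 TPM in any library. The part of these cells in the levels of the 9 genes was not tested.

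The genes whose pattern over the 12 libraries lay nearest to that of Aqp2 were found by the root mean square difference of log2(TPM + 1), each gene centred on its own mean. They were Fndc4, Agt, Hspb2, Plau and Gbp7 (differences of 0.32, 0.33, 0.33, 0.34 and 0.34, beside a spread of 0.84 for Aqp2 itself). Among 14971 genes ranked, Fxyd4 was 6th and Scnn1b 90th, followed by Hsd11b2 (749), Aqp3 (2731), Scnn1g (3995), Avpr2 (5483), Scnn1a (6924) and Aqp4 (13078). The measure favours genes that vary as much as Aqp2 and says nothing of shared function or control.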

How the data were processed

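The authors deposited 1 table of TPM (transcripts per 1000000) for 27179 genes by NCBI Gene number; each column sums to 1000000. The submitters' processing notes name the build mm10 and limma; the aligner and counter are not given in the sources used here. Names, coordinates and promoter windows came from RefSeq tables of GRCm38.p6. Low TPM values gave each library's worth of 1 read, and so whole reads. Each gene's unit was chosen to make its values whole within 0.02 reads. That all 232991 values above 0 were whole is therefore no separate check of the recovered reads.

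The 14972 genes that reached 1 TPM in 3 or more libraries were tested. limma 3.58.1 (R 4.3.3) fitted 4 group means to log2(TPM + 1) of all 12 libraries with a mean-variance trend, and p-values were adjusted over all genes (Benjamini–Hochberg, threshold 0.05). Fold changes on this scale understate those of low genes. SE and 95% intervals are limma's. Ratios and Fan1 were compared by two-sided exact permutation of 3 against 3 mice. Python 3.11.15 was used elsewhere. The steps were tested on simulated data.

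The 9 genes and all lists were chosen with earlier results of these data known. All 9 are named in each comparison, as are list genes called between genotypes, at most 3 a list by size of change, except where said otherwise. Also named, outside this rule, were Hoxb7 (called) and Nr3c2, Sgk1, Slc12a3, Apela, Rhcg, Cdh16 and Npnt (not called). Upk1b, Upk2 and Upk3a, which were not tested, were named too. The promoter motifs were chosen after the results were known. Alternatives were each library left out, voom on recovered reads (3695 genes called between genotypes under cisplatin, beside 3585 by the fit to TPM), median-ratio scaling, a replicate block, a pseudocount of 0.1, only the 6 libraries compared, only libraries low in Y-linked RNA, Y-linked RNA as covariate (Ddx3y, Eif2s3y, Kdm5d and Uty), no trend, mitochondrially encoded genes removed, and every gene kept. Each mouse gave 1 library, and same-numbered mice of different groups are different animals.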

Additional observations from a re-analysis of the deposited data

How the results depend on the processing

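The 4 genes called between genotypes under cisplatin became 2 with only the 6 libraries compared, with median-ratio scaling and once mitochondrially encoded genes were removed, 3 without the filter on low genes, without the trend, by voom and with only libraries low in Y-linked RNA, 7 with the Y-linked covariate, and 1 to 4 without 1 library. Over all genes, 2931 of 14972 were called higher in the main fit. In the same order of settings this number became 1721, 1300 and 1883, then 3158 (of 22557), 2781, 3030 and 4328, then 6035. Without 1 library it was 1169 to 3144. In the interaction, 0 became 4 with the Y-linked covariate, 3 with only libraries low in Y-linked RNA and 1 by voom, and 0 to 1 without 1 library. Over all genes, 782 called higher there became 4088, 2004 and 718 in these settings, and 217 to 981 without 1 library. The counts under saline and for cisplatin in wild-type kidneys were 0 under every alternative run. Cisplatin against saline in FAN1KO kidneys gave 3 to 5, beside 2157 to 7919 of all genes called higher and 482 to 2101 lower. Same-numbered libraries are different mice, and their deviations from group means did not go together (mean correlation 0.02, range -0.61 to 0.76 over 18 pairs). The replicate block gave 4, 0, 4, 0 and 0 calls in the 5 comparisons and changed no call. Over all genes it called 2376 higher between genotypes under cisplatin and 4798 for cisplatin in FAN1KO kidneys.

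Directions that turned belonged to genes that were not called in the comparison concerned, though some were called in others. With median-ratio scaling these were Scnn1a between genotypes under cisplatin (-0.14), Avpr2 (0.0340) and Scnn1b (0.00977) under saline, Avpr2 (-0.40), Scnn1a (-0.27) and Scnn1g (-0.18) for cisplatin in FAN1KO, Scnn1b (-0.0334) and Hsd11b2 (-0.0605) for cisplatin in wild-type kidneys, and Scnn1a in the interaction (-0.29). With only libraries low in Y-linked RNA these were Scnn1g (-0.0238) and Fxyd4 (0.26) under saline, Avpr2 (-0.26) and the ratio Scnn1g/Scnn1a (-0.0559) in FAN1KO and Hsd11b2 (-0.0343) in wild-type kidneys. With mitochondrially encoded genes left out, Avpr2 in FAN1KO became -0.0825 and the Scnn1a interaction -0.0257. The Aqp4 interaction became 0.10 with a pseudocount of 0.1 and 0.27 by voom. The causes were not tested.

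Without 1 library, log2 values that changed sign ranged as follows: under saline Avpr2 -0.27 to 0.24, Scnn1b -0.30 to 0.22, Hsd11b2 -0.30 to 0.22, Fxyd4 -0.42 to 0.37, Scnn1a -0.22 to 0.34, Scnn1g -0.23 to 0.24 and Aqp3 -0.15 to 0.0455; under cisplatin Scnn1a -0.0550 to 0.38; in FAN1KO Avpr2 -0.22 to 0.28, Scnn1a -0.0544 to 0.41 and Scnn1g/Scnn1a -0.0884 to 0.21; in wild-type kidneys Scnn1a -0.19 to 0.34, Scnn1b -0.18 to 0.30, Hsd11b2 -0.19 to 0.20 and Aqp2 -0.54 to 0.15; and in the interaction Scnn1a -0.18 to 0.38 and Aqp4 -1.05 to 0.51. With 3 mice a group, spread between mice limits these values more than depth: Aqp4, the lowest, had 86 to 1848 reads.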
